A study of Homo sapiens with 6 samples.

Results

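The genes described here are 46 cytosolic chaperones, co-chaperones, heat shock factors and subunits of the chaperonin TRiC, taken by symbol from a deposited table of 60643 genes. All 46 were found, and for HSPA14, which had 2 rows, the row with the higher mean was used. Molecular chaperones of the cytosol bind unfolded proteins and help them to fold or to be degraded. HSP70 proteins bind and release short hydrophobic stretches in a cycle driven by ATP: J-domain proteins (DNAJ) deliver the client and start ATP hydrolysis, and nucleotide exchange factors (the HSP110 family, BAG proteins, HSPBP1) reset the cycle. HSP90, helped by co-chaperones, takes over later folding intermediates such as kinases and steroid receptors, small heat shock proteins hold unfolded proteins without ATP, and the chaperonin TRiC (also called CCT) encloses actin, tubulin and other clients in a ring-shaped chamber. When unfolded proteins accumulate, heat shock factor 1 (HSF1) binds heat shock elements in DNA and switches on many of these genes.

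The cells were HCT116, an established human colorectal carcinoma line, and all of them carried an inducible short hairpin RNA (shRNA) whose target is CAPG, a protein that caps actin filaments. In 3 libraries (+Dox) doxycycline had been given for 3 days at a labelled 100 ng/µl, and the genotype label is CAPG knockdown. In the other 3 libraries (-Dox) the cells were untreated, and the genotype label is WT although the sample names give the same shRNA line. Doxycycline in cells lacking the hairpin was not analysed here, so effects of the drug and of the shRNA cannot be told apart. The labels do not tell whether replicates were grown separately, and p-values therefore reflect spread among these 6 libraries that may be purely technical. CAPG was at 8.18, 8.03 and 9.97 FPKM with doxycycline, against 61.1, 56.9 and 53.7 FPKM without it, so the targeted gene was lower in the libraries labelled as induced (limma adjusted p = 7.24e-06). FPKM is the number of sequenced fragments per kilobase of transcript, scaled to a fixed number of fragments per library.

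Depth was estimated at 14800000 to 18500000 fragments per library. The FPKM values of +Dox replicate 3 summed to 586911, while the sums of the other 5 libraries lay between 521832 and 536037. Of 7 epithelial genes fixed as markers of the line, EPCAM, CDH1, KRT8, KRT18 and KRT19 were expressed, VIL1 was near 0 and CDX1 was listed at 0. EPCAM was higher with doxycycline (241 ± 20.0 FPKM with doxycycline and 190.1 ± 8.12 FPKM without it, SD, n = 3 each, limma adjusted p = 0.0401). The 7 genes summed to 1861 to 2197 FPKM with doxycycline and 1654 to 1855 FPKM without it, and their part in the chaperone results was not tested. Summed fibroblast markers were at 7.58 to 9.80 FPKM with doxycycline and 7.97 to 11.3 FPKM without it, nearly all of it COL1A1, with COL1A2 and DCN listed at 0. Summed leukocyte markers reached at most 1.01 FPKM with doxycycline and 0.912 FPKM without it, and CD3E was listed at 0. Summed endothelial markers reached at most 0.573 FPKM with doxycycline and 0.246 FPKM without it.

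With doxycycline 16 of the 44 chaperone genes that could be tested rose, by small amounts, and the other 28 did not pass the test. Of the tested genes, the small heat shock protein genes HSPB1 and HSPB8 and the inducible HSP70 gene HSPA1B rose most, by 64.1%, 74.1% and 50.4% of their mean FPKM without doxycycline. The most abundant chaperone genes, HSPA8, HSP90AA1 and HSP90AB1, differed by 14.7%, 12% and 15.3%, and the 8 TRiC subunits by 15.8% to 31.4%. Changes were tested for all 14475 genes that reached 1 FPKM in at least 3 libraries, on log2(FPKM + 1), with limma and Benjamini-Hochberg adjustment, and a gene is said to rise or fall only where the adjusted p was under 0.05. Of the 46 genes 44 were tested, HSPA1A and CRYAB falling below the minimum. Of these 44, 16 rose (36.4%) and 0 fell, against 3.69% of all tested genes higher and 4.77% lower (8.46% in either direction). Without adjustment, 30 of the 44 were higher and 0 lower at a limma p under 0.05, where the shares of all tested genes were 13.6% and 14.3%. The log2 change was positive in 43 of the 44 (97.7%), against 49.6% of all tested genes. In 35 of the 44 (79.5%) every library with doxycycline lay above every library without it, against 17% of all tested genes. The median log2 change was 0.26 over the 44 genes and -0.00 over all tested genes. Cells with more of these transcripts and a larger share of cells that express them cannot be told apart in bulk RNA.

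**Figure D1:**
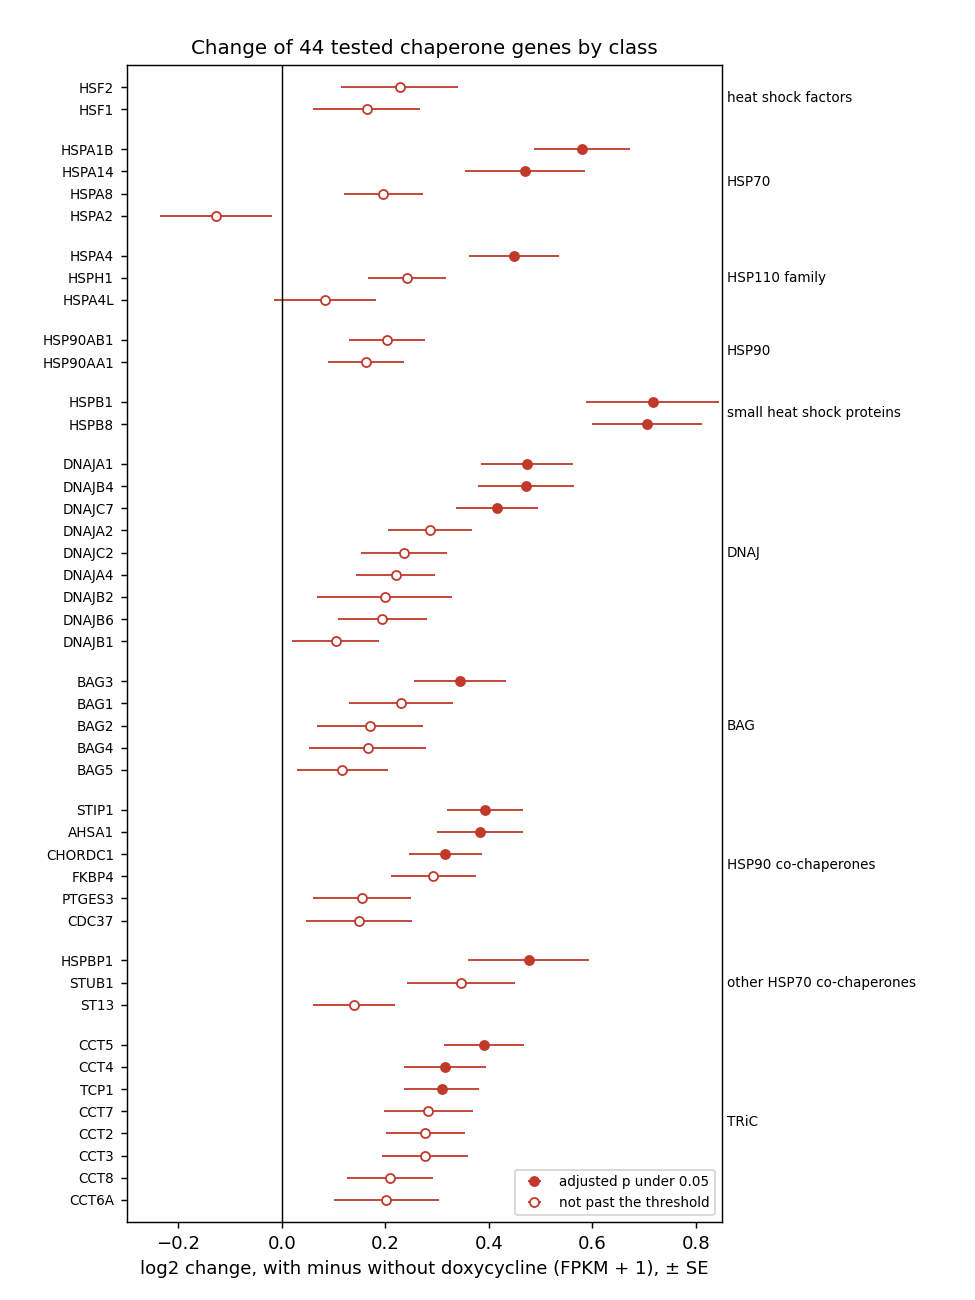
Log2 change (horizontal axis, +Dox minus -Dox, on log2(FPKM + 1)) with its standard error for the 44 tested chaperone genes, grouped by class and sorted by size within each class. Filled points mark the 16 genes past an adjusted p of 0.05 and open points the other 28; HSPA2 is the single point left of zero.

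The number of genes that rose depended on which libraries were fitted. It was 11, 5 and 15 without +Dox replicates 1, 2 and 3, and 5, 3 and 7 without -Dox replicates 1, 2 and 3, with 0 lower in each fit. Calls fell over all tested genes too: 1.9%, 0.933% and 2.82% were higher without +Dox replicates 1, 2 and 3. Without -Dox replicates 1, 2 and 3 the shares were 1.66%, 0.597% and 1.7%, against 3.69% with all libraries. HSPA1B, HSPB1 and HSPB8 kept their calls in all 6 of these fits. The other 13 lost theirs in at least 1 fit, each with its highest adjusted p (0.0792 for DNAJA1 to 0.142 for BAG3) without -Dox replicate 2. +Dox replicate 3 was the highest of its group in 38 of the 44 genes and was also the library with the larger FPKM sum. With all libraries scaled to equal totals 20 rose (3.14% of all tested genes), and with that library left out as well 16 (3.05%). The 46 genes together took 1.59%, 1.61% and 1.61% of the summed FPKM in +Dox replicates 1, 2 and 3, against 1.37%, 1.40% and 1.40% in -Dox replicates 1, 2 and 3.

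Many chaperone genes are abundant, so the changes were also set beside genes of similar level (level ranges chosen after the values were seen). Among 385 tested genes with a mean of 200 FPKM or more the median log2 change was 0.09, and among the 12 chaperone genes in that range it was 0.28, all 12 lying above 0.09. Among 1328 genes between 50 and 200 FPKM the median was 0.10, and for the 12 chaperone genes there it was 0.27, again with all 12 above. In the highest range 4 of 12 chaperone genes rose, against 4.68% of all genes there, and between 50 and 200 FPKM 5 of 12, against 8.96%. The values of the highest range moved with +Dox replicate 3: without it the median over all genes there was 0.02, with 54.3% of them positive in place of 75.8%, and 6 of 12 chaperone genes rose against 7.27% of all. With libraries scaled to equal totals that median was 0.03, with 59.7% positive, and 8 of 12 chaperone genes rose against 8.31% of all. The median of the 12 chaperone genes was 0.22 in both of these fits. Between 10 and 50 FPKM the median was 0.01 over 5608 genes and 0.24 over 17 chaperone genes. Below 10 FPKM it was -0.05 over 7154 genes and 0.17 over 3 chaperone genes, of which 2 lay above -0.05 and HSPA2 below.

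**Figure D2:**
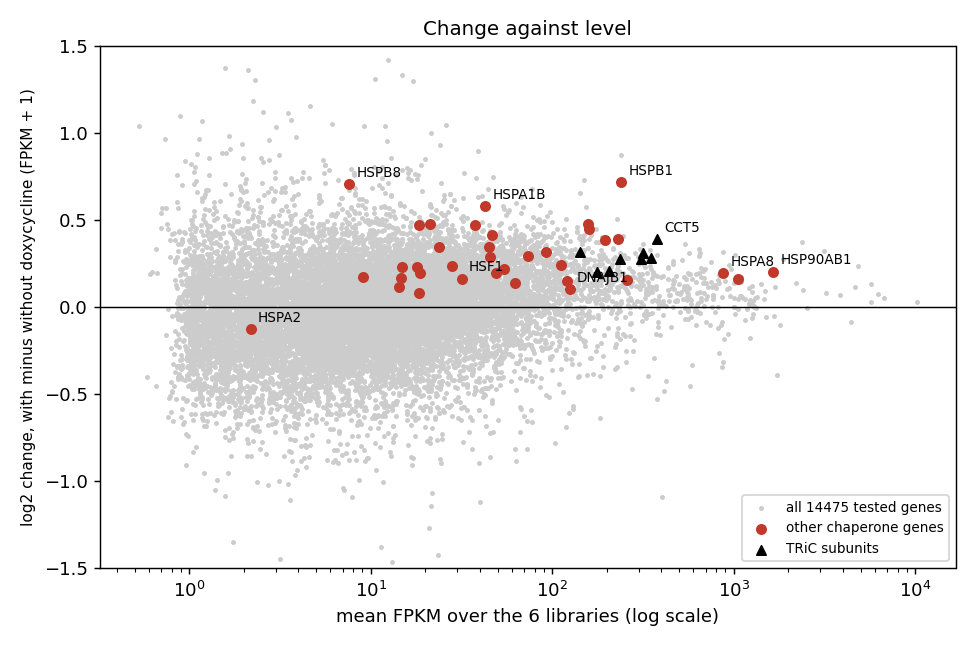
Log2 change (vertical axis, +Dox minus -Dox, on log2(FPKM + 1)) against the mean FPKM over the 6 libraries (horizontal log axis) for all 14475 tested genes (grey), TRiC subunits (black triangles) and the other chaperone genes (red); 13 genes lie outside the vertical range. The chaperone points lie above zero at each level, apart from HSPA2, and the grey cloud itself lies mostly above zero at the highest levels.

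HSF1 and HSF2 encode the stress-responsive heat shock factors. HSF1 was at 32.9, 32.7 and 34.8 FPKM with doxycycline, against 33.7, 30.4 and 25.7 FPKM without it, so the groups overlapped, and it did not pass the test (log2 0.16, SE 0.10, adjusted p = 0.336). HSF2 was at 15.1, 15.7 and 17.3 FPKM with doxycycline, against 11.5, 14.3 and 15.1 FPKM without it. Its groups nearly touched without overlapping, and it did not pass either (log2 0.23, adjusted p = 0.223).

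Small heat shock proteins form oligomers that keep unfolded clients soluble until HSP70 takes them over. HSPB1 (chr7:76302673-76304295, GRCh38) was at 264, 297 and 335 FPKM with doxycycline, against 209.6, 185 and 151 FPKM without it. All 3 libraries with doxycycline were above all 3 without it, and it rose (log2 0.72, SE 0.13, limma adjusted p = 0.0151). HSPB8 (chr12:119171555-119224855), which works with BAG3 in the selective autophagy of misfolded proteins, was present at a far lower level, at 9.48, 9.17 and 10.4 FPKM with doxycycline, against 5.39, 5.02 and 6.27 FPKM without it. It rose as well (log2 0.71, SE 0.11, adjusted p = 0.00736). HSPB1 and HSPB8 had the 2 largest log2 changes of the 44 genes, in an order that turned with the pseudocount (0.72 for HSPB1 and 0.79 for HSPB8 with 0.1 in place of 1) and with quantile normalization (0.60 and 0.74). CRYAB, the alpha-B crystallin gene, was barely detected, at 0.166, 0.107 and 0.0891 FPKM with doxycycline, against 0.200, 0.163 and 0.312 FPKM without it, and was not tested. For comparison, 3 fragments in a transcript of 1 kb correspond to 0.163 to 0.203 FPKM at these depths. The 250 bases before the RefSeq start of the genes with the largest changes, HSPB1 and HSPB8, are shown because each holds GAANNTTC, a pair of facing heat shock element units, given in capitals (RefSeq, GRCh38.p14). The RefSeq start of HSPB8 lies inside the interval above. In the windows searched below, GAANNTTC was found for 6 of 15 chaperone genes that rose, 8 of 22 tested ones that did not pass and 8.21% of all genes.
HSPB1 (chr7:76302423-76302672, plus strand): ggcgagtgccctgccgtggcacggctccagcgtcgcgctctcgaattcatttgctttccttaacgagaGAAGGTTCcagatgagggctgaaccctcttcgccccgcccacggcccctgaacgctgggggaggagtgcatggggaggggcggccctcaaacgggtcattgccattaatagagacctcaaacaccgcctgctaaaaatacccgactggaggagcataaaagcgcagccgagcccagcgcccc
HSPB8 (chr12:119178681-119178930, plus strand): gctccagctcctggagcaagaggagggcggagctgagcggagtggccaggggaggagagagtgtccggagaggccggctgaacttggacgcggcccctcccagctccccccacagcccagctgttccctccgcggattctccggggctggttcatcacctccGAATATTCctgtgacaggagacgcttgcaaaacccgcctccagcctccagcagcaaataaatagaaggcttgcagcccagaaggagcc

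HSPA1B and HSPA1A are stress-inducible HSP70 genes that lie next to each other on chromosome 6, while HSPA8 is the constitutive HSC70. HSPA1B (chr6:31827738-31830254) was at 50.6, 50.6 and 53.2 FPKM with doxycycline, against 37.9, 34.6 and 30.2 FPKM without it. The groups were far apart relative to their spread (log2 0.58, SE 0.09, limma adjusted p = 0.01). HSPA1A (chr6:31815543-31817946) was at only 0.825, 0.628 and 0.671 FPKM with doxycycline, against 0.614, 0.409 and 0.197 FPKM without it. The longest GENCODE transcripts of HSPA1A and HSPA1B were identical at 98.6% of 2152 aligned positions, so their reads cannot be told apart over most of their length, and the split between the rows is uncertain. Summed over both genes the level was 51.4, 51.2 and 53.8 FPKM with doxycycline, against 38.5, 35.0 and 30.4 FPKM without it (log2 0.58, SE 0.10, adjusted p = 0.0106). The start regions of HSPA1A and HSPA1B are also close copies, with 277 of 301 aligned positions identical over the 300-base windows around the starts, and both carry the same GAATATTC, capitals below, that matches GAANNTTC (RefSeq, GRCh38.p14).
HSPA1A (chr6:31815293-31815542, plus strand): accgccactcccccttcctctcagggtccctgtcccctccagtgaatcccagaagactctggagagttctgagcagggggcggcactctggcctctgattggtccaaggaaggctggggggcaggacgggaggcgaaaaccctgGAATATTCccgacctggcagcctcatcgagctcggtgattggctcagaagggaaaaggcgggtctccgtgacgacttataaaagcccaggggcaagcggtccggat
HSPA1B (chr6:31827488-31827737, plus strand): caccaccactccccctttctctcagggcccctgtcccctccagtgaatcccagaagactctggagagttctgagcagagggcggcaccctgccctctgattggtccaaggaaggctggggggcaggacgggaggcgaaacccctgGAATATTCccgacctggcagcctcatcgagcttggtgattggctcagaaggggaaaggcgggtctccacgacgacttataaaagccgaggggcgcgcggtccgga

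HSPA8 (chr11:123057489-123063230) was the most abundant HSP70 gene, at 895, 898 and 1007 FPKM with doxycycline, against 806, 824 and 810.5 FPKM without it. All libraries with doxycycline were above those without it, but +Dox replicate 3 stood apart from the other 2, and the gene did not pass the test (log2 0.20, SE 0.08, adjusted p = 0.133). That library also had the larger FPKM sum. HSPA8 passed with quantile normalization, but not with equal totals or equal median ratios. The inducible genes HSPA1A and HSPA1B together reached 0.0574, 0.0571 and 0.0534 of the HSPA8 FPKM with doxycycline, against 0.0477, 0.0424 and 0.0375 without it. HSPB1 reached 0.295, 0.330 and 0.333 of HSPA8 with doxycycline, against 0.260, 0.225 and 0.187 without it. Neither ratio overlapped between the groups, and such a ratio within a library is the same under any linear scaling of that library. HSPA1B and HSPB1 are among the genes that rose most, so the ratios describe those changes and are no separate support. How often such ratios do not overlap over all genes was not counted. HSPA2, an HSP70 best known from the testis, was low, at 1.97, 2.06 and 2.08 FPKM with doxycycline, against 2.28, 2.20 and 2.48 FPKM without it. It was the single tested gene with a negative log2 change (-0.13, adjusted p = 0.48), also under each scaling tried. HSPA14, the HSP70 of the ribosome-associated complex, was at 19.2, 20.7 and 25.1 FPKM with doxycycline, against 13.8, 15.4 and 16.7 FPKM without it, and it rose (log2 0.47, SE 0.12, adjusted p = 0.0385), a call lost in 5 of the 6 fits without 1 library. The other row of that name overlaps it on the same strand and was at 9.64, 8.96 and 8.54 FPKM with doxycycline, against 9.80, 9.92 and 9.56 FPKM without it (log2 -0.10, adjusted p = 0.502). Reads of these overlapping rows may have been divided between them, and the HSPA14 value is uncertain.

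The HSP110 family are relatives of HSP70 that act as its nucleotide exchange factors and, with HSP70 and J-domain proteins, dissolve aggregates. HSPA4 (chr5:133052013-133106449) was at 175, 175 and 206 FPKM with doxycycline, against 129.9, 135 and 139.7 FPKM without it. It rose (log2 0.45, SE 0.09, limma adjusted p = 0.0195), and the call was lost without -Dox replicates 1 and 2 (up to 0.0846). HSPH1 was at 117, 122 and 125 FPKM with doxycycline, against 97.1, 104 and 107 FPKM without it, with groups apart but short of the threshold (log2 0.24, adjusted p = 0.0767). HSPA4L was at 20.5, 19.4 and 17.0 FPKM with doxycycline, against 16.7, 17.5 and 19.2 FPKM without it, with overlapping groups (log2 0.08, adjusted p = 0.627).

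HSP90 comes from 2 cytosolic genes, the more inducible HSP90AA1 and the more constitutive HSP90AB1. HSP90AB1 was the most abundant of all 46 genes, at 1697, 1729 and 1880.5 FPKM with doxycycline, against 1538, 1563 and 1502 FPKM without it. HSP90AA1 was at 1083, 1119 and 1165 FPKM with doxycycline, against 956, 1019 and 1031 FPKM without it. In both, the lowest library with doxycycline was above the highest without it, and neither passed the test (log2 0.20 and 0.16, adjusted p = 0.109 and 0.182), although HSP90AB1 did with libraries scaled to equal totals (0.0385). The ratio of HSP90AA1 to HSP90AB1 was 0.638, 0.647 and 0.620 with doxycycline, against 0.622, 0.652 and 0.687 without it, with overlapping groups.

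**Figure D3:**
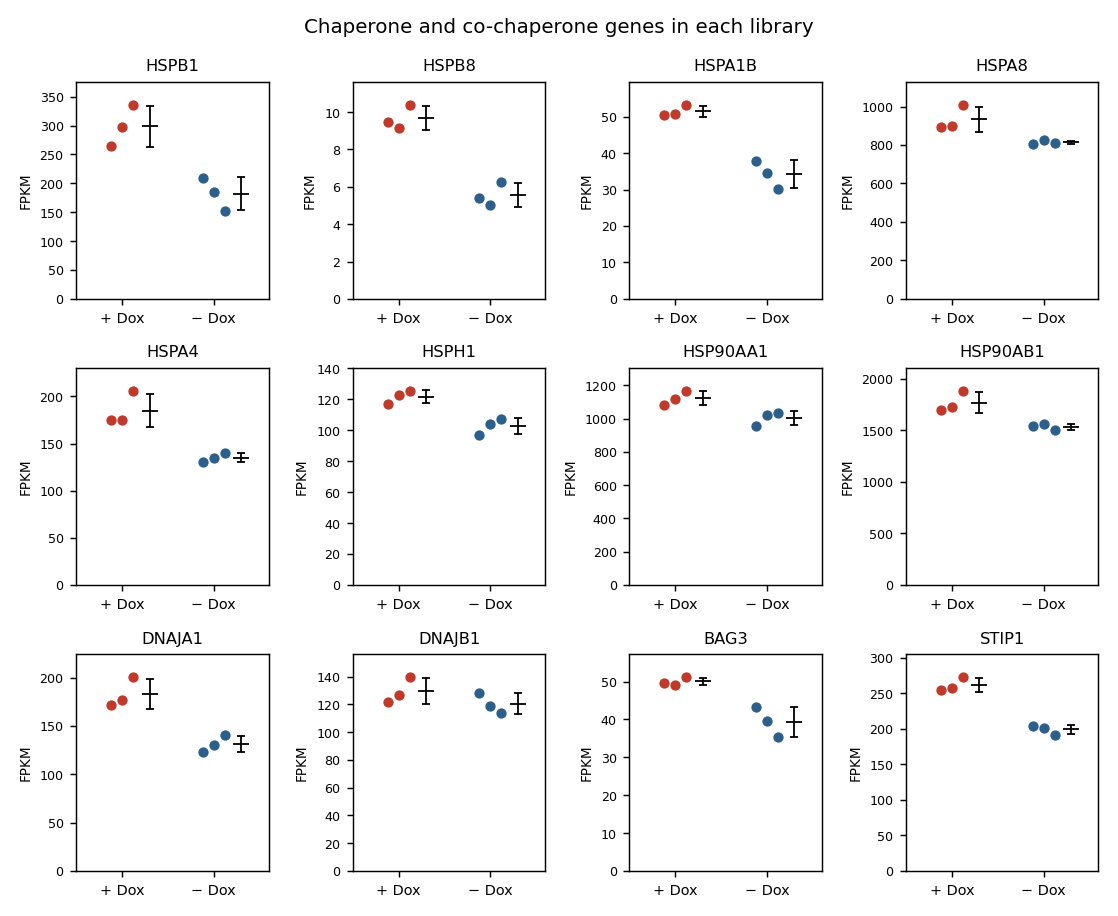
FPKM (vertical axes, each from 0) of 12 chaperone and co-chaperone genes in the 3 +Dox libraries (red, left) and the 3 -Dox libraries (blue, right), with the mean and SD as a black bar beside each group. The groups are widely separated for HSPB1, HSPB8 and HSPA1B, narrowly separated for HSPA8, HSPH1, HSP90AA1 and HSP90AB1, and overlap for DNAJB1.

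J-domain proteins choose the clients of HSP70. Of 9 genes 3 rose and 0 fell, against 3.69% and 4.77% of all tested genes. In 7 of the 9 every library with doxycycline lay above every library without it, against 17% of all tested genes. The median log2 change was 0.24 over the 9 and -0.00 over all tested genes. DNAJA1, the most abundant of the 9 (chr9:33025273-33039907), was at 172, 176 and 200.4 FPKM with doxycycline, against 123, 130.3 and 140.5 FPKM without it (log2 0.47, SE 0.09, limma adjusted p = 0.0173). DNAJB4 was at 42.1, 48.9 and 40.2 FPKM with doxycycline, against 30.2, 30.3 and 32.9 FPKM without it (log2 0.47, adjusted p = 0.0203). DNAJC7, which binds both HSP70 and HSP90 through its TPR repeats, was at 50.3, 52.9 and 57.5 FPKM with doxycycline, against 39.8, 40.3 and 39.5 FPKM without it (log2 0.42, adjusted p = 0.0178). The 3 genes had groups that were clearly apart, and each lost its call in 2 or 3 of the 6 fits without 1 library. DNAJB1, the J-domain protein gene most often used as a sign of HSF1 activity, was at 122, 127 and 139.6 FPKM with doxycycline, against 128, 119 and 114 FPKM without it. Its groups overlapped, and its log2 change was the lowest of the 9 (0.10, SE 0.08, adjusted p = 0.463). The other 5, DNAJA2, DNAJA4, DNAJB2, DNAJB6 and the ribosome-associated DNAJC2, had log2 changes between 0.19 and 0.29 and did not pass the test. Pseudogene rows of DNAJB6 came to 72.8% of its level, so its value is uncertain. DNAJA2 came nearest to it (50.2 ± 3.68 FPKM with doxycycline and 40.9 ± 0.978 FPKM without it, SD, n = 3 each, adjusted p = 0.058), and DNAJB2 overlapped between groups.

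BAG proteins share a domain that frees nucleotide, and with it the client, from HSP70. BAG3, which links HSP70 and HSPB8 to autophagy and is itself a heat shock gene, was at 49.7, 49.2 and 51.2 FPKM with doxycycline, against 43.2, 39.6 and 35.3 FPKM without it. Of the 5 BAG genes 1 rose, against 3.69% of all tested genes. This was BAG3 (log2 0.34, SE 0.09, limma adjusted p = 0.0452), a call held in 1 of the 6 fits without 1 library and missed with equal totals (0.0581). The other 4 did not pass the test: BAG1 had log2 0.23, BAG2, a cofactor that restrains the ubiquitin ligase STUB1, had 0.17, and BAG4 and BAG5 had 0.17 and 0.12. The groups overlapped for BAG4 and BAG5. BAG5, the lowest, was at 14.9 ± 0.870 FPKM with doxycycline and 13.7 ± 0.689 FPKM without it (SD, n = 3 each, adjusted p = 0.426). The exons of BAG2 overlap those of RAB23 on the opposite strand over up to 2842 bases, and no source used here gives whether counting used the strand.

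Of the remaining HSP70 partners, HSPBP1, a nucleotide exchange factor that can also block HSP70 function, rose. It was at 21.1, 24.5 and 29.4 FPKM with doxycycline, against 18.1, 17.6 and 16.9 FPKM without it (log2 0.48, SE 0.12, limma adjusted p = 0.0371), and the call was held in 1 of the 6 fits without 1 library. STUB1, the ubiquitin ligase CHIP that sends clients of HSP70 to the proteasome, was at 25.1, 25.8 and 29.7 FPKM with doxycycline, against 23.3, 20.9 and 18.7 FPKM without it, with groups apart but short of the threshold (log2 0.35, adjusted p = 0.0696). ST13, which stabilizes the client-bound form of HSP70, was at 63.1, 63.4 and 71.0 FPKM with doxycycline, against 58.4, 58.7 and 61.7 FPKM without it (log2 0.14, adjusted p = 0.287). The 16 rows named as pseudogenes of ST13 were together at 153, 158 and 161 FPKM with doxycycline, against 136, 144 and 136 FPKM without it. That is more than ST13 itself, so its value is uncertain.

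HSP90 co-chaperones set the pace of the HSP90 cycle, and 3 of the 6 rose, against 3.69% of all tested genes. STIP1, which hands clients from HSP70 to HSP90, was at 255, 258 and 273 FPKM with doxycycline, against 204, 202 and 192 FPKM without it (log2 0.39, SE 0.07, limma adjusted p = 0.017). AHSA1, an activator of the HSP90 ATPase, was at 218, 208 and 242 FPKM with doxycycline, against 172, 162 and 176 FPKM without it (log2 0.38, adjusted p = 0.0266). CHORDC1, an HSP90-binding protein, was at 101, 101 and 105 FPKM with doxycycline, against 81.0, 80.3 and 84.6 FPKM without it (log2 0.32, adjusted p = 0.0291), and its pseudogene rows came to 16.6% of its level. In each of these the groups were clearly apart, while the calls were held in 3, 1 and 1 of the 6 fits without 1 library. FKBP4, a prolyl isomerase of steroid receptor complexes, was at 79.2, 76.5 and 88.5 FPKM with doxycycline, against 68.0, 66.9 and 63.7 FPKM without it and just missed the threshold (log2 0.29, adjusted p = 0.0564). CDC37, which loads kinases onto HSP90, and PTGES3, the p23 protein that holds HSP90 in its closed form, had overlapping groups (log2 0.15 and 0.16, adjusted p = 0.378 and 0.318). The pseudogenes of PTGES3 were together at 212, 215 and 234 FPKM with doxycycline, against 177, 204 and 241 FPKM without it, a level close to that of PTGES3 (250.3, 259.9 and 303 FPKM with doxycycline and 225, 249 and 255 FPKM without it), so that value is uncertain as well.

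TRiC is built from 8 different subunits, each encoded by its own gene, that are needed in equal numbers. In all 8 genes every library with doxycycline lay above every library without it, against 17% of all tested genes. Abundant genes leaned upward in general: 68.8% of all tested genes between 50 and 200 FPKM had a positive change, and 75.8% of those above. TCP1, CCT4 and CCT5 rose, 3 of the 8, against 3.69% of all tested genes. CCT5 (chr5:10249929-10266389), the most abundant, was at 401, 424 and 456 FPKM with doxycycline, against 323, 320.1 and 332 FPKM without it (log2 0.39, SE 0.08, limma adjusted p = 0.0203). TCP1 was at 351, 349 and 352 FPKM with doxycycline, against 294, 286 and 269 FPKM without it (log2 0.31, SE 0.07, adjusted p = 0.0331). The libraries with doxycycline had almost no spread in FPKM, while the share of TCP1 in the TRiC total was 15.8%, 15.4% and 14.1% in +Dox replicates 1, 2 and 3. CCT4, the least abundant subunit, was at 148, 154 and 169.8 FPKM with doxycycline, against 122, 128 and 128 FPKM without it (log2 0.32, SE 0.08, adjusted p = 0.0421). CCT2, CCT3 and CCT7 had changes of much the same size (log2 0.28, 0.28 and 0.28) and came just short of the threshold, with adjusted p of 0.0552, 0.0704 and 0.0695. CCT6A and CCT8 had the lowest changes (log2 0.20 and 0.21, adjusted p = 0.227 and 0.141), and in CCT6A the spread with doxycycline was set by replicate 3, at 172, 176 and 219 FPKM in replicates 1, 2 and 3. The exons of TCP1 overlap those of ACAT2 on the opposite strand over up to 397 bases, and those of DNAJC7, AHSA1 and STUB1 overlap CNP, VIPAS39 and JMJD8 over up to 338, 83 and 436 bases, so their values are uncertain without strand. The same limit holds for further chaperone genes. Among them, DNAJC2, HSPA4L, DNAJB1, BAG4 and BAG5 overlap PMPCB, AC093591.1, TECR, LSM1 and KLC1 over up to 580, 183, 152, 143 and 72 bases.

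The share of each subunit in the TRiC total overlapped between the groups for 7 of the 8, CCT5 being the exception. Added up, the 8 genes came to 2214, 2272 and 2490.5 FPKM with doxycycline, against 1902, 1910.0 and 1873 FPKM without it. The order of mean levels with doxycycline was CCT5, CCT7, TCP1, CCT3, CCT2, CCT8, CCT6A and CCT4, and it was the same without doxycycline. Among neighbours in this order, the ranges of CCT5 and CCT7 and of TCP1 and CCT3 overlapped in both groups, those of CCT8 and CCT6A did so with doxycycline, and those of CCT7 and TCP1 did so without it. CCT5 made up 18.4 ± 0.279% of the TRiC FPKM with doxycycline and 17.2 ± 0.504% without it (SD, n = 3 each), at 18.1%, 18.7% and 18.3% against 17.0%, 16.8% and 17.7%, so that its share did not overlap between the groups. The share of CCT8 was 9.41%, 9.40% and 9.59% with doxycycline, against 9.40%, 10.2% and 10.5% without it, with overlapping groups. TRiC genes that rose numbered 1, 0 and 4 without +Dox replicates 1, 2 and 3 (of all tested genes 1.9%, 0.933% and 2.82%). They numbered 0 without each of -Dox replicates 1, 2 and 3 (of all tested genes 1.66%, 0.597% and 1.7%). With all libraries scaled to equal totals they numbered 6 (of all tested genes 3.14%), as CCT2, CCT3 and CCT7 passed as well. By unadjusted limma p under 0.05, 7 of the 8 were higher with all libraries as deposited, against 13.6% of all tested genes.

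**Figure D4:**
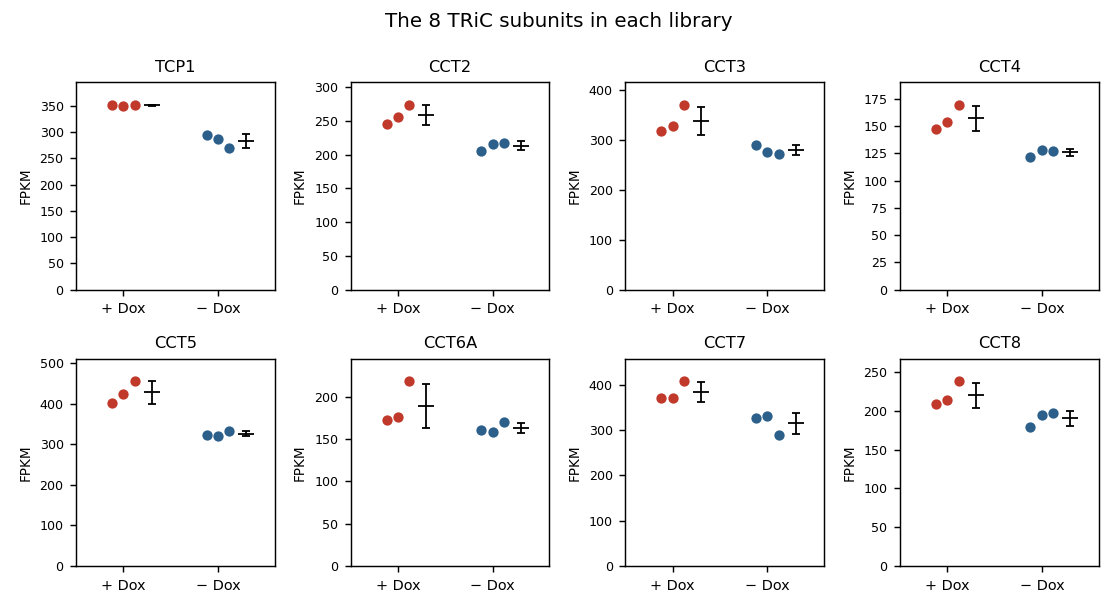
FPKM (vertical axes, each from 0) of the 8 TRiC subunit genes in the 3 +Dox libraries (red, left) and the 3 -Dox libraries (blue, right), with the mean and SD as a black bar beside each group. In all 8 panels the red points lie above the blue points, by the widest margin in CCT5, where the lowest +Dox library was at 401 FPKM and the highest -Dox library at 332 FPKM.

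Of 48 genes in 7 lists that work next to these chaperones 46 were tested, of which 5 rose and 1 fell. The shares over the whole tested table were 3.69% up and 4.77% down. By unadjusted limma p under 0.05, 20 were up and 3 down, against 13.6% and 14.3% of all tested genes. Their median log2 change was 0.15, and it was positive in 37 of the 46, against 49.6% of all tested genes. Prefoldin passes unfolded actin and tubulin to TRiC, and of its 6 subunit genes PFDN2 rose (134 ± 14.1 FPKM with doxycycline and 97.4 ± 2.25 FPKM without it, SD, n = 3 each, log2 0.45, adjusted p = 0.0205), while PFDN1 had a negative change (log2 -0.22, adjusted p = 0.172). PDCL3, a phosducin-like cofactor of TRiC, rose as well (37.2 ± 5.34 FPKM with doxycycline and 25.6 ± 1.82 FPKM without it, log2 0.51, adjusted p = 0.0251). Of 7 actin and tubulin genes whose products TRiC folds 0 rose and 0 fell by limma (3 up and 0 down by unadjusted p under 0.05). ACTB was at 879.6 ± 61.6 FPKM with doxycycline and 846 ± 70.8 FPKM without it (adjusted p = 0.72). Of 12 further HSP90 co-chaperone genes, CACYBP rose (log2 0.33, adjusted p = 0.0305) and FKBP5, a prolyl isomerase of steroid receptor complexes induced by glucocorticoids, fell. FKBP5 was at 25.4, 26.9 and 26.6 FPKM with doxycycline, against 31.6, 33.1 and 34.1 FPKM without it (log2 -0.31, adjusted p = 0.0386). RPAP3, of the R2TP complex that assembles large protein machines with HSP90, rose (log2 0.38, adjusted p = 0.0247), with RUVBL1, RUVBL2 and PIH1D1 between -0.08 and 0.08. DNAJC8, a J-domain protein of the nucleus, rose (log2 0.30, adjusted p = 0.0434). HSPA6, an HSP70 gene known to be strictly stress-induced in human cells, was at 0.0220, 0.00 and 0.0224 FPKM with doxycycline, against 0.00, 0.00 and 0.0844 FPKM without it, below the minimum for the test. Of 5 HSF1 target genes outside the cytosolic chaperones 0 rose and 0 fell by limma (2 up and 0 down by unadjusted p under 0.05). UBB, a polyubiquitin gene, came nearest to the threshold (log2 0.30, adjusted p = 0.0686).

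Heat shock elements were searched in the RefSeq windows of 250 bases before to 50 bases after each annotated gene start, on both strands. The complete form has 3 alternating units: GAANNTTC with NN and GAA after it, or with TTC and NN before it. It was found for 166 of 27305 genes (0.608%) and for 6 of the 38 chaperone genes with a window (15.8%). GAANNTTC alone, which every complete match contains and which reads the same on both strands, was found for 8.21% of all genes and for 15 of the 38 (39.5%). HSF1, HSPA14, CRYAB, BAG4, FKBP4, ST13, STUB1 and CCT6A had no window in the table. By test result, 2 of 15 genes that rose and 4 of 22 tested genes that did not pass held the complete form, and 6 of 15 and 8 of 22 held GAANNTTC. The complete form was thus held by 13.3% of genes that rose and by 18.2% of those that did not pass. The complete matches are shown because 15.8% of the chaperone genes held one, against 0.608% of all genes. They are in capitals with 10 flanking bases on each side (RefSeq, GRCh38.p14, 5′ to 3′ along the gene's strand).
CHORDC1 (chr11:90223087-90223109, minus strand): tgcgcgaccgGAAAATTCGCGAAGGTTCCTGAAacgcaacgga
DNAJA1 (chr9:33025276-33025288, plus strand): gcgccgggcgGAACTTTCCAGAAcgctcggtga
HSPA8 (chr11:123062354-123062366, minus strand): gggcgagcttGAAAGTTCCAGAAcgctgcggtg
HSPA8 (chr11:123062179-123062191, minus strand): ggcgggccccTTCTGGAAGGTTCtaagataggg
HSP90AA1 (chr14:102087120-102087132, minus strand): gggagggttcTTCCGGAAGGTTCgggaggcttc
HSP90AB1 (chr6:44247778-44247790, plus strand): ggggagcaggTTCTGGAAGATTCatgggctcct
HSP90AB1 (chr6:44247831-44247843, plus strand): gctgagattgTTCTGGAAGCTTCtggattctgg
DNAJB6 (chr7:157336873-157336885, plus strand): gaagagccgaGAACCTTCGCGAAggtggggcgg
The CHORDC1 match, 60 to 38 bases before the start, is the longest, 23 bases with 3 overlapping complete matches. A match is a sequence feature of the window and does not show that a factor binds there, and the absence of these letters from a window says nothing about other sites.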

How the data were processed

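The members and gene lists were chosen with earlier results of these data known. The deposited table gives 1 value per gene and library. Its header names no unit, and the values were treated as FPKM made by the authors, because they are not whole numbers, sum to no fixed total and, for single-exon genes, step inversely with gene length. Per the submitters' processing notes, Bowtie, BWA, STAR, Cufflinks, RSEM and kallisto were used, without versions or roles, and the build was hg19. The loci, however, lie on GRCh38 and count starts from 0: of 39331 identifiers found in GENCODE 29, 39321 matched after adding 1, and coordinates are given on GRCh38 from 1. FPKM depends on what else a library holds, and near-identical genes may share reads.

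Depth was estimated from the FPKM step of 1 fragment in 3644 single-exon genes. These depths and limits cover counting error only. The 14475 genes reaching 1 FPKM in 3 or more libraries were tested on log2(FPKM + 1), a scale that understates changes of low genes, with limma 3.58.1 in R 4.3.3 (trended, robust, group as the only term, two-sided, Benjamini-Hochberg over all tested genes, threshold 0.05). The fit was tested on simulated data, where it recovered 6.4% of 1.25-fold, 43.2% of 1.5-fold and 83.6% of 2-fold changes. There 3.66% of its calls were false. A gene that did not pass the test is therefore not shown to be unchanged. Named genes were CAPG, every member past the threshold, the highest and lowest log2 change and level of each class, HSF1 and HSF2, and up to 2 called genes of each neighbouring list; other members and neighbours with values were chosen after these were seen. Alternatives covered the pseudocount, the filter, 3 scalings, the variance model, a replicate block and each library left out. A correction for transcript length and GC content, and equal totals without +Dox replicate 3, were added after the data were seen. The GAANNTTC search was also added then. Protein sequences were not analysed here.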

Additional observations from a re-analysis of the deposited data

How the results depend on the processing

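As reported, 16 chaperone genes were called higher and 0 lower, and of all genes 534 higher and 691 lower. No alternative called a chaperone gene lower, and the median log2 change of the chaperone genes stayed between 0.21 and 0.31. The chaperone genes called higher are given here with the share of all genes in brackets. They numbered 16 with a pseudocount of 0.1 (3.59%) and 19 of 43 with a filter of 5 FPKM (6.28%). With equal totals they numbered 20 (3.14%), with equal median ratios 20 (4.3%) and with quantile normalization 15 (4.25%). BAG3 missed the threshold with equal totals and with quantile normalization (0.0581 and 0.0553), and CHORDC1 and TCP1 with quantile normalization (0.062 and 0.0991). With no filter 0 were called by limma (30 at an unadjusted p under 0.05), with 53 of all genes higher and 100 lower among 32367 tested. Without the trend and robust options 9 were called and 354 of all genes were higher. Deviations of same-numbered libraries from their group means correlated at -0.043, 0.009 and -0.023. With 3 libraries per group such values cannot tell whether the replicate numbers pair the libraries, and the labels do not say. With the replicate block 2 chaperone genes (DNAJA1 and HSPB8), 69 of all genes higher and 142 lower were called. After the length and GC correction 26 chaperone genes were called, with 1291 of all genes higher and 1050 lower, and with the replicate block as well 19, with 973 of all genes higher. Leaving out 1 library gave 3 to 15 chaperone genes higher, 85 to 403 of all genes higher and 157 to 597 lower. The causes of these differences were not tested. Depth limits CRYAB and HSPA1A, and shared sequence limits HSPA1A, HSPA1B, ST13, PTGES3 and DNAJB6.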

Other observations

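Among the libraries without doxycycline the chaperone genes ran in opposite orders. The orders given here were not counted over all tested genes, so they are not shown to be particular to the chaperone genes. In 13 of the 44 tested genes -Dox replicate 1 was the highest of its group and -Dox replicate 3 the lowest, among them HSPA1B, HSPB1, BAG3, DNAJB1, STIP1, STUB1 and HSF1. In 17 others -Dox replicate 3 was the highest and -Dox replicate 1 the lowest, among them HSPH1, HSPA4, HSP90AA1, DNAJA1, DNAJC2, CCT2 and CCT8. -Dox replicate 3 was also the shallowest library, at an estimated 14800000 fragments. With doxycycline, replicate 3 was the highest and replicate 1 the lowest in 30 genes, and the opposite held for 1 gene, HSPA4L.

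Pseudogene rows named for HSP90AA1 and HSP90AB1 came to 2.73% and 2.24% of the mean level of their parent gene, and those of HSPA8 to 0.329%. For DNAJB6 they came to 72.8% and for CHORDC1 to 16.6%.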
